A study of Mus musculus with 21 samples.

Results

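Irx3, Irx4, Hey2, Gata4, Gata6, Nkx2-5, Tbx5, Tbx20, Mef2c and Hand2 encode transcription factors of heart muscle and chamber identity. They were picked by name for their known roles, not by a cutoff on values, and are 10 of the 20960 genes in the count table. Their transcripts were followed in the hearts of wild-type adult males. For 8 weeks, 4 mice received polystyrene nanoplastics, plastic particles of nanometre size, and 3 controls received distilled water. Each heart gave 3 bulk RNA libraries, labelled atrial, right ventricular and left ventricular section, 21 in all. Not given in the sources used here are the dose and the route. Members were matched by gene symbol, and all 10 were found.

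These factors act as a network. NKX2-5, GATA4, TBX5 and MEF2C bind close to one another at the enhancers of contractile and natriuretic peptide genes and activate them together, and GATA6, TBX20 and HAND2 work in the same network during chamber formation and in the adult heart. IRX4 and HEY2 mark ventricular muscle and hold down atrial genes there, IRX3 serves the ventricular conduction system, and TBX5 supports the atrial programme and conduction. HAND2 takes its name from heart and neural crest derivatives and is best known for right ventricular development.

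Promoters are shown for 3 genes that the results below turn on: Nppa, a target of the network that was higher in the right ventricle after nanoplastics, Nkx2-5, the member with the clearest difference between sections, and Hand2, the member with 1 mouse far from its group. Each is the 250 bases upstream of the annotated start, 5′ to 3′ on the gene's strand, from RefSeq on GRCm38.p6. Nppa lies at chr4:148000472-148000721 on the plus strand, Hand2 at chr8:57320733-57320982 on the plus strand and Nkx2-5 at chr17:26841566-26841815 on the minus strand. Capitals mark matches, on either strand, to the motifs searched. The GATA factor motif was AGATAA. For NKX2-5 the core motif was AAGTG. For T-box factors it was GGTGTGA. The HAND factor motif searched was CATCTG. The HEY factor motif searched was CACGTG. For Iroquois factors it was ACANNTGT, whose matches can contain the HAND or the HEY motif. The MEF2 consensus is given by its name alone.

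Nppa: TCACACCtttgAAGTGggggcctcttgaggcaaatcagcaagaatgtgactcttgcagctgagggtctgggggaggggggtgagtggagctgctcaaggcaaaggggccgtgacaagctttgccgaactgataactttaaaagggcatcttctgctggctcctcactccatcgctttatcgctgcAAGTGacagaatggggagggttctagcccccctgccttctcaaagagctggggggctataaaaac

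Hand2: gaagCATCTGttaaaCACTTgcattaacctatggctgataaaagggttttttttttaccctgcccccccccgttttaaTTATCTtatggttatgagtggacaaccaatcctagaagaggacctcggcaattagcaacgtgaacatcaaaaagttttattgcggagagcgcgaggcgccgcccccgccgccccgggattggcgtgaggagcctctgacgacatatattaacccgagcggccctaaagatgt

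Nkx2-5: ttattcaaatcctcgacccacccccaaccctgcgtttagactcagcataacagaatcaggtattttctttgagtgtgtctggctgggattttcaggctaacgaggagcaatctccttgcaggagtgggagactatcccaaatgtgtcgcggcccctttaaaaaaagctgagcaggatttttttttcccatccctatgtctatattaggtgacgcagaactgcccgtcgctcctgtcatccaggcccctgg

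The Nppa window begins with a T-box match read on the opposite strand and holds 2 AAGTG matches. The Hand2 window holds 1 GATA match at -172, 1 AAGTG match at -235 and 1 HAND match at -246, counted from the start site. The Nkx2-5 window matched none of the motifs searched. The promoter table covered 7 of the 10 genes (Irx3, Irx4, Hey2, Nkx2-5, Tbx20, Mef2c and Hand2), with 9 start sites, since Mef2c has 3. AAGTG was found at 3 of these 7 genes (Irx3, Mef2c and Hand2) and in 40.7% of all 32851 windows of the same length. CATCTG was found at 2 genes (Mef2c and Hand2) against 14.4% of all windows, and AGATAA at 1 gene (Hand2) against 9.99%. None of the 7 held the T-box, HEY, Iroquois or MEF2 motif, which occurred in 3.33%, 6.02%, 6.31% and 2.92% of all windows. A match is only a run of letters, and binding was not measured in these hearts.

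Depth limited what could be measured. Of the 21 libraries, 20 held 413400 to 2439000 counts (median 1134000), so that 1 count equalled 0.41 to 2.419 CPM, the share of a library's counts that a gene takes on the customary fixed scale. The right ventricular library of nanoplastics mouse 2 held 4662 counts and not 1 count of any of the 10 genes. Because 3 counts there equal 643.5 CPM, it says nothing about genes at these levels, and section levels below come from the other 20 libraries, while the fits and the whole-heart sums include it. The remaining nanoplastics right ventricular libraries held 438053 to 813585 counts against 1333133 to 2042568 in the controls. Together the 10 genes took 99.19 to 138.3 CPM in atrial libraries (median 126.5), 94.43 to 132.5 in right ventricular ones (median 107.4) and 87.03 to 111.5 in left ventricular ones (median 102.4). CPM values are scaled with edgeR's TMM factors. Counting intervals are exact Poisson intervals on the count of 1 library and so cover counting error only. It is not stated whether duplicate reads were removed, and if they were kept, these intervals may be too narrow.

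Most libraries labelled atrial were not rich in atrial muscle RNA. Myl7, Myl4 and Sln, which encode the atrial myosin light chains and the atrial calcium pump regulator sarcolipin, summed to 17.7, 249.6 and 46.1 CPM in the control atrial libraries. In the nanoplastics atrial libraries the sum was 39180, 69.92, 9.986 and 3168 CPM in mice 1 to 4. It ranged from 5.325 to 96.63 CPM in right ventricular libraries and from 5.012 to 1676 CPM in left ventricular ones, the highest again in mouse 4. Myl2, the ventricular light chain gene, stood at 6938 to 12080 CPM in the atrial libraries. The label atrial is used below for the section as the submitters named it. The atria of nanoplastics mice 1 and 4 enter the atrial and whole-heart values below, and their part in them was tested only where a value without them is given.

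Compared per kilobase of the longest annotated transcript, Nkx2-5 had the highest level of the 10, 10.77 ± 3.23 CPM per kb (SD over 20 libraries). Hand2 followed at 5.952 ± 1.85, Gata6 at 4.556 ± 1.36, Mef2c at 4.033 ± 0.788 and Gata4 at 3.542 ± 1.16 CPM per kb. The Iroquois genes were lower, Irx3 at 2.753 ± 1.10 and Irx4 at 1.685 ± 1.07 CPM per kb. Tbx5 at 1.018 ± 0.579, Tbx20 at 0.9168 ± 0.312 and Hey2 at 0.4129 ± 0.341 CPM per kb closed the order. Nkx2-5 exceeded Hand2 in 18 of 20 libraries and Tbx20 exceeded Hey2 in 16 of 20, and in these 2 steps the gap was larger than either gene's SD. The other neighbours in the order differed by less than the larger SD of the pair, down to Tbx5 over Tbx20 in 10 of 20 libraries. Before dividing by length, Mef2c gave the most counts, 653 over 20 libraries, whereas Hey2 gave 28 and was at 0 in 5 libraries. The mean was then 25.31 CPM for Mef2c, 17.24 for Gata6 and 16.42 for Nkx2-5. Tbx20, at 8.335 CPM, was above Irx3, Irx4 and Tbx5. The libraries were made by template switching at the 5′ end, and whether their counts scale with transcript length was not tested. The order per kb therefore depends on the division by length.

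**Figure D1:**
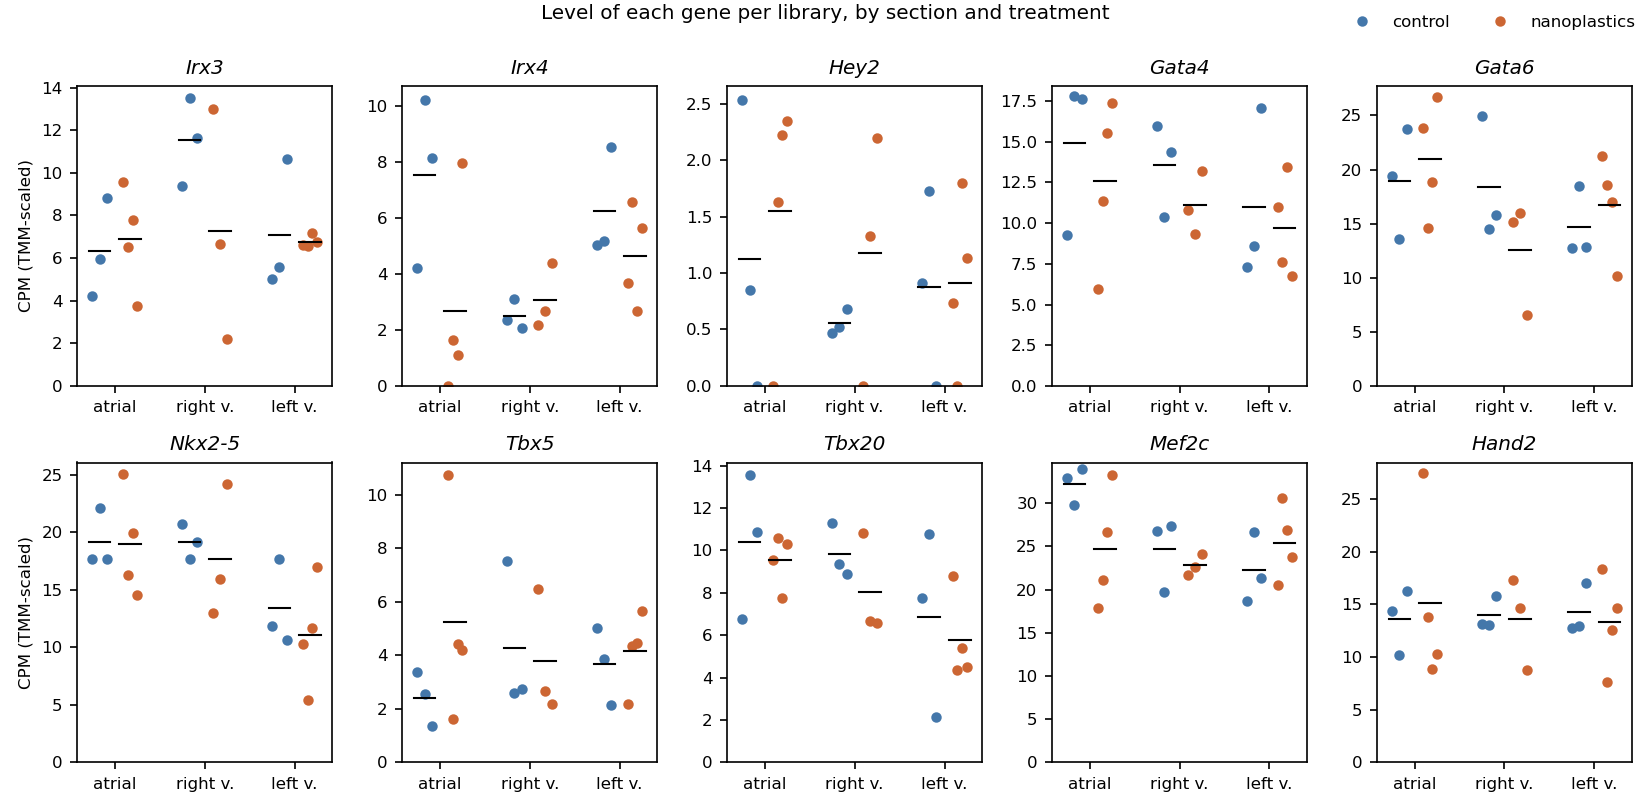
TMM-scaled CPM of each gene (linear axes starting at 0, one scale per gene) in the 20 libraries above the depth minimum, by section, with controls in blue, nanoplastics mice in orange and a bar at each group's mean. Treated and control points overlap for all 10 genes in all 3 sections. The Nkx2-5 bars sit lower in the left ventricle than in the other sections, while the points of the sections overlap.

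Over the whole heart, as the sum of each mouse's 3 libraries, 0 of the 10 genes changed with nanoplastics. Of the 10, 9 passed the count filter, all but Hey2. Among all 8485 genes tested 217 were called (2.56%) at an adjusted p under 0.05 by edgeR. None of the 9 had an unadjusted p under 0.05, against 1541 of all genes tested (18.2%). DESeq2 gave an adjusted p to only 3549 genes and called 333 of them (9.38%), none a member. How many of the 9 were among those 3549 is not given here, so this adds little. The median log2 change of the 9 was -0.07 against -0.03 over all genes tested. Where RNA comes from bulk tissue, fewer cells of a type and less RNA per cell cannot be told apart. The sections did not weigh equally in the sums. The right ventricle gave 36.9%, 36.5% and 44% of the counts of the 3 control hearts and 17.1%, 0.2%, 27.9% and 12% of those of nanoplastics mice 1 to 4, so the sum of mouse 2 is nearly free of right ventricle.

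The core activators came first. Nkx2-5, the homeobox factor of heart muscle, stood at 16.14, 18.34 and 17.1 CPM in the 3 controls and at 15.22, 11.24, 15.69 and 16.08 CPM in nanoplastics mice 1 to 4. All 4 treated hearts were below all 3 controls, but the highest treated and the lowest control value were 16.08 and 16.14 CPM. The share of all genes tested with so complete an order is not given here, so the order is a description only. The level of Nkx2-5 was higher in right than in left ventricular libraries in 6 of 6 mice, and the part of the unequal section shares in this order of hearts was not tested. Its log2 change was -0.20 (SE 0.18, 95% interval -0.58 to 0.18, adjusted p = 0.621).

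Gata4, a zinc finger activator of contractile and natriuretic peptide genes, was at 10.82, 11.07 and 15.94 CPM in controls and 9.278, 9.439, 13.14 and 13.82 CPM after nanoplastics. The groups overlapped, with control mouse 3 highest, and the log2 change was -0.07 (SE 0.22, 95% interval -0.53 to 0.38, adjusted p = 0.907). Gata6, its close relative, was at 18.44, 15.8 and 18.55 CPM against 20.78, 15.73, 17.52 and 19.47 CPM. The groups overlapped over the whole control range, and the log2 change was 0.10 (SE 0.18, 95% interval -0.27 to 0.47, adjusted p = 0.825).

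Mef2c, a MADS-box factor that switches on muscle structural genes, was at 24.29, 24.51 and 28.98 CPM in controls and 19.67, 24.27, 25.91 and 29.06 CPM in treated hearts. Nanoplastics mouse 1 was the lowest and mouse 4 the highest of the 7 hearts. The log2 change was -0.03, with the narrowest interval of the set, -0.38 to 0.33 (SE 0.17, adjusted p = 0.953).

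The T-box genes gave wider intervals. Tbx5, an activator of atrial and conduction genes, was at 5.497, 3.086 and 2.028 CPM in controls and 5.567, 2.697, 4.014 and 4.232 CPM in treated hearts. The spread within each group was as wide as that between them, and the log2 change was 0.20 (SE 0.35, 95% interval -0.52 to 0.92, adjusted p = 0.822). Tbx20, which maintains adult heart muscle, was at 8.688, 10.71 and 8.693 CPM against 9.278, 7.641, 6.569 and 8.182 CPM. Of the treated hearts, 3 were below all controls and mouse 1 was inside their range (log2 change -0.22, SE 0.22, 95% interval -0.69 to 0.25, adjusted p = 0.668).

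Hand2, a basic helix-loop-helix factor, was at 12.94, 12.16 and 15.94 CPM in controls and 20.78, 10.79, 12.04 and 11 CPM in nanoplastics mice. Mouse 1 was above every control and the other treated mice were below all of them, so the log2 change of 0.03 (SE 0.23, 95% interval -0.44 to 0.51, adjusted p = 0.959) averages opposite deviations. Without mouse 1 it was -0.23.

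Among the chamber genes, Irx3 was at 6.383, 8.351 and 10.14 CPM in controls and 8.536, 6.293, 7.299 and 4.232 CPM in treated hearts, with overlap (log2 change -0.30, SE 0.27, 95% interval -0.85 to 0.25, adjusted p = 0.605). Irx4 was at 3.724, 5.447 and 5.506 CPM against 2.227, 3.596, 2.19 and 6.771 CPM. Mice 1 to 3 were below all controls and mouse 4 above them (log2 change -0.29, SE 0.35, 95% interval -1.02 to 0.44, adjusted p = 0.725). Hey2, a Hairy-related repressor downstream of Notch, was at 1.064, 1.089 and 0.2898 CPM against 0.3711, 0.8989, 1.825 and 1.975 CPM. It fell under the count filter, and an exact two-sided permutation test of its whole-heart level gave p = 0.4 over the 35 splits of the 7 mice, of which the smallest possible is 0.02857. In the fit without a count filter, where 1.52% of all genes were called, its log2 change was 0.58 (SE 0.62, 95% interval -0.63 to 1.79, adjusted p = 0.673).

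For the 9 genes that passed the filter, the 95% intervals reached from -1.02 to 0.92 on the log2 scale at their widest. A change inside its gene's 95% interval is not excluded by these mice at this depth, and a p above the threshold does not show that levels are equal.

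**Figure D2:**
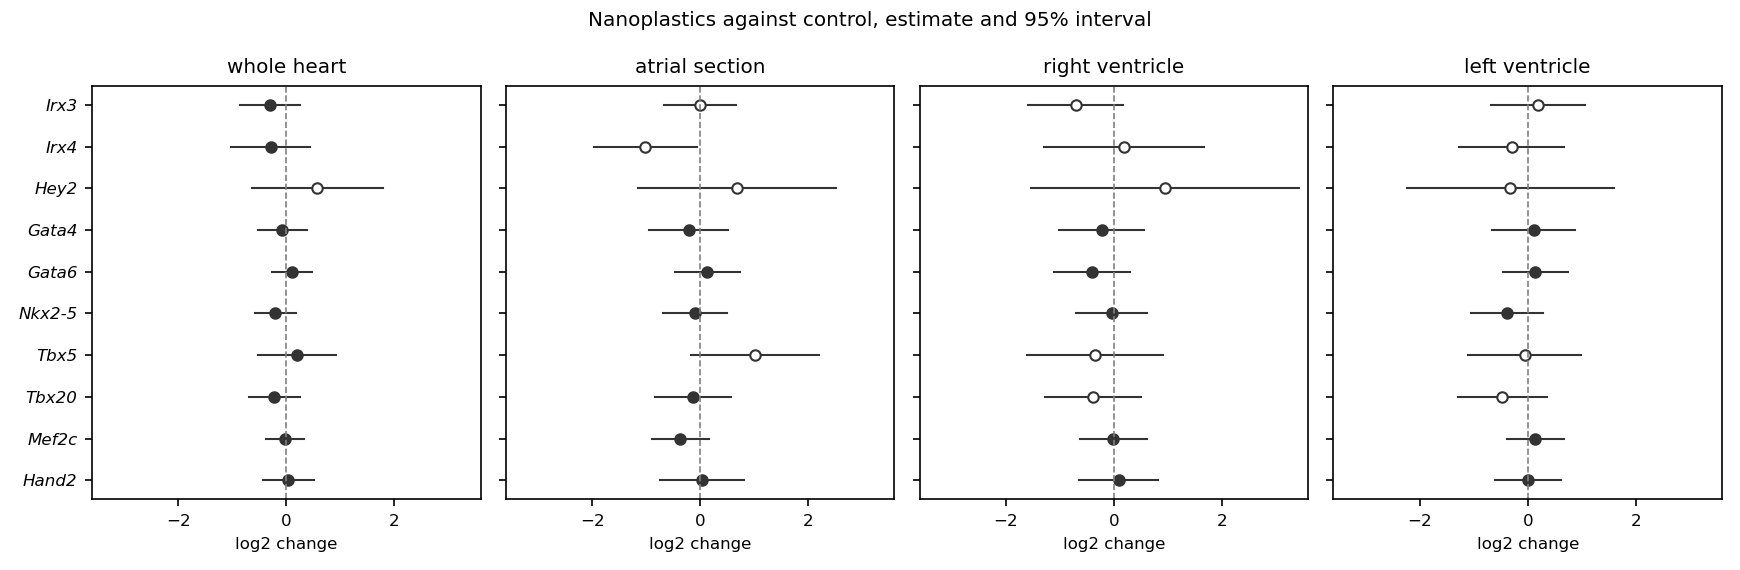
Log2 change (nanoplastics against control, linear axis) of each gene in the whole heart and in each section, with points at edgeR's estimate and lines for the 95% interval. Filled points passed the count filter and open points come from the fit without it, and the intervals of the filled points all include 0.

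Section by section the picture was the same, with no member called in any. In the atrial section 6 genes passed the filter and 0 were called, as were 0 of 5502 genes tested (0%, with 674 at an unadjusted p under 0.05). Their log2 changes ran from -0.36 (Mef2c, SE 0.25, adjusted p = 0.595) to 0.14 (Gata6). Mef2c was at 32.88, 29.72 and 33.89 CPM in the control atrial libraries and at 17.9, 21.14, 26.63 and 33.29 CPM in the treated ones. There 3 treated libraries lay below all controls and mouse 4 lay between them.

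Irx4 gave the lowest atrial estimate, from few counts. Control atrial libraries held 5, 12 and 12 counts (4.215, 10.19 and 8.135 CPM) and those of nanoplastics mice 1 to 4 held 0, 2, 1 and 17 counts (0, 1.626, 1.11 and 7.97 CPM). Mice 1, 2 and 3 were below all controls, while mouse 4 was within their range. In mouse 1, where 3 counts equal 3.564 CPM, the level can be no more than stated as below that floor. The log2 change without a count filter was -1.01 (SE 0.49, 95% interval -1.97 to -0.06, edgeR unadjusted p = 0.0378, adjusted p = 0.693), in a fit that called 0.0936% of all genes. In that fit 6.78% of genes had an unadjusted p under 0.05. The value depended on mouse 4, without which the log2 change was -2.78 and the adjusted p 0.0441, in a fit that called 71 of 17487 genes (0.406%).

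The same libraries differ in the atrial muscle sum given above. Mouse 1, with 39180 CPM of Myl7, Myl4 and Sln and no count of Irx4 or Hey2, had 9 counts of Tbx5, 10.74 CPM, the highest Tbx5 level of the 20 libraries. Mouse 4, with 3168 CPM, had the highest treated level of Irx4, and mice 2 and 3, with 69.92 and 9.986 CPM, had 2 counts and 1 count. The part of the atrial share in these differences was not tested. Tbx5 stood at 3.372, 2.547 and 1.356 CPM in the control atrial libraries and 10.74, 1.626, 4.438 and 4.22 CPM in the treated ones, a log2 change of 1.02 (SE 0.61, 95% interval -0.16 to 2.21, adjusted p = 0.719). The treated range encloses most of the control range.

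**Figure D3:**
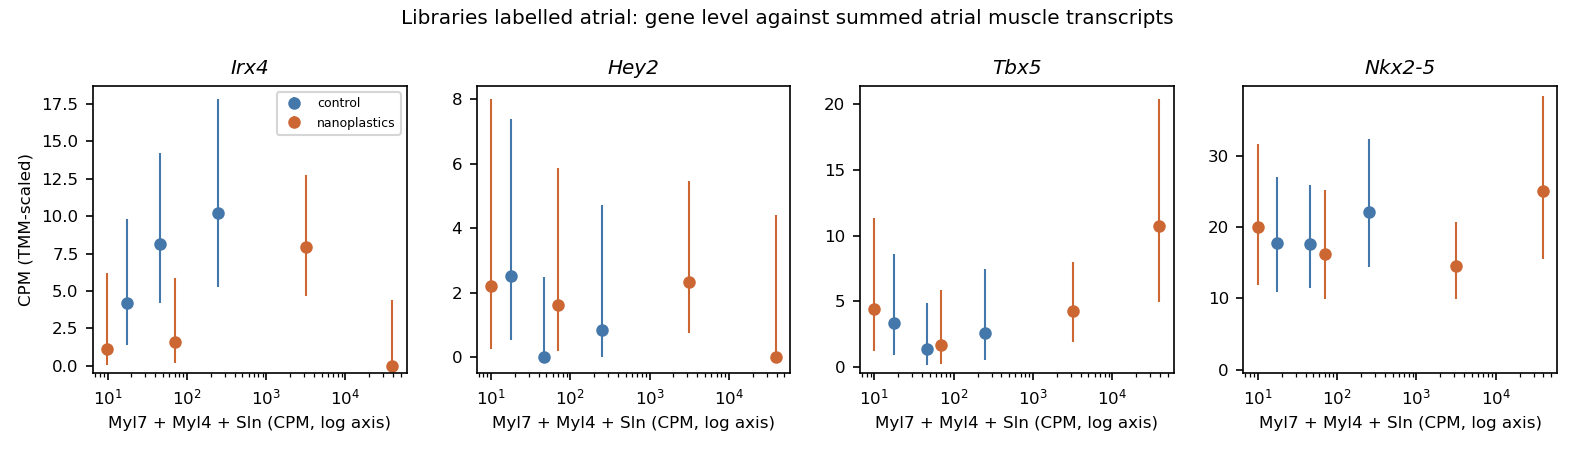
TMM-scaled CPM of Irx4, Hey2, Tbx5 and Nkx2-5 (linear vertical axes) against the sum of Myl7, Myl4 and Sln (log horizontal axis) in the 7 libraries labelled atrial, with exact Poisson 95% counting intervals as lines. The library farthest to the right, nanoplastics mouse 1 at 39180 CPM, has no count of Irx4 or Hey2 and the highest level of Tbx5.

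In the right ventricle 5 genes passed and 0 were called, against 39 of 4489 genes tested (0.869%). Their log2 changes ran from -0.41 (Gata6, SE 0.36, adjusted p = 0.661) to 0.09 (Hand2). Gata6 was at 24.91, 14.55 and 15.76 CPM in controls and at 15.16, 15.97 and 6.588 CPM in the 3 usable treated libraries, with the extremes set by control mouse 1 and nanoplastics mouse 4. Irx3, under the filter, was at 9.4, 13.51 and 11.65 CPM (20, 26 and 17 counts) against 12.99, 6.656 and 2.196 CPM (6, 5 and 1 counts). Here 2 of 3 treated libraries lay below the controls (log2 change -0.71, SE 0.45, 95% interval -1.59 to 0.18, adjusted p = 0.701; 0.115% of genes called without a filter). Hey2 had the highest right ventricular estimate, 0.94, between 0 and 2.196 CPM in every library.

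In the left ventricle 5 genes passed and 0 were called, against 3 of 5440 genes tested (0.0551%). Nkx2-5 was lowest at -0.38 on the log2 scale (SE 0.33, adjusted p = 0.637) and Gata6 highest at 0.14. Nkx2-5 levels were 11.85, 17.65 and 10.67 CPM in controls and 10.27, 5.459, 11.65 and 16.94 CPM in treated left ventricles. The groups overlapped, with nanoplastics mouse 2 the lowest of the 7. Under the filter, Tbx20 had a log2 change of -0.47 (SE 0.42, adjusted p = 0.659; 0.168% of genes called) and Irx3 of 0.18.

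Whether the effect of nanoplastics differed between sections was tested as an interaction with the mouse as a block. Of the 10 genes 7 passed and 0 were called in any of the 3 contrasts, as were 0 of 6269 genes tested (0%), although 345, 317 and 188 genes had an unadjusted p under 0.05. Among these 7, Mef2c gave the lowest estimate between atrial and left ventricular effects, -0.53 (unadjusted p = 0.109, adjusted p = 0.931). Irx3 gave the highest of the 7 between atrial and right ventricular effects, 0.72 (adjusted p = 0.98). For the 3 members under the filter, the fits without it also called 0, where 0.00477%, 0% and 0% of genes were called. Irx4 was at -1.03 (atrial minus left ventricular effect, SE 0.69) and -1.49 (atrial minus right, SE 0.96). In the same order Tbx5 was at 0.91 (SE 0.78) and 1.41 (SE 0.88), and Hey2 at 0.54 and -0.25 (SE 1.43 each). Their 95% intervals all included 0. No member had an unadjusted p under 0.05 in these contrasts in either fit. DESeq2 called 0 members, where it called 1, 0 and 0 of 6269 genes.

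Sections of the same heart were then compared with the mouse as a block. Nkx2-5 had the clearest pattern: its mean was 19.03 ± 3.61 CPM in atrial (SD, n = 7), 18.44 ± 3.86 in right ventricular (n = 6) and 12.07 ± 4.16 CPM in left ventricular libraries (n = 7). Within mice, atrial and left ventricular levels were 17.7 and 11.85, 22.07 and 17.65, and 17.63 and 10.67 CPM in the 3 controls. They were 25.07 and 10.27, 16.26 and 5.459, 19.97 and 11.65, and 14.53 and 16.94 CPM in nanoplastics mice 1 to 4. Only mouse 4 had the higher level in the left ventricle, so the atrial section was higher in 6 of 7 mice. The share of all genes with so regular a direction is not given here, so such counts of mice, above and below, are descriptions only.

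The atrial minus left ventricular difference of Nkx2-5 was 0.68 on the log2 scale (SE 0.21, 95% interval 0.24 to 1.13, unadjusted p = 0.00427), and it did not pass after adjustment (adjusted p = 0.199). In that comparison 5 members passed the filter and 0 were called, against 8 of 5176 genes tested (0.155%). An unadjusted p under 0.05 was reached by 652 of these genes (12.6%). Without nanoplastics mouse 4, whose left ventricular library held 1676 CPM of the atrial transcripts and whose atrial library held 3168, the difference was 0.83 (adjusted p = 0.0476), in a fit that called 98 of 5243 genes (1.87%). Without each other mouse in turn the adjusted p was at least 0.228. Between the ventricles, Nkx2-5 was higher on the right in 6 of 6 mice, though in control mouse 2 only by 17.67 against 17.65 CPM. That difference was 0.47 (SE 0.20, 95% interval 0.08 to 0.86, unadjusted p = 0.0191, adjusted p = 0.764), where 1 of 5012 genes was called (0.02%) and 0 members. There 261 genes (5.21%) had an unadjusted p under 0.05. The called gene was Hbb-bt, a beta globin gene of red cells, at 0.74 (SE 0.14, adjusted p = 0.00413), called in 8 of 14 alternatives, and the part of blood in the members' values was not tested.

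Gata4 and Tbx20 were placed like Nkx2-5, higher in the atrial than in the left ventricular section in 6 of 7 mice each. Gata4 averaged 13.57 ± 4.72 CPM in atrial and 10.26 ± 3.82 in left ventricular libraries (SD, n = 7), a difference of 0.51 (SE 0.24, unadjusted p = 0.0424, adjusted p = 0.378). Tbx20 averaged 9.911 ± 2.23 and 6.244 ± 2.98 CPM, a difference of 0.55 without the filter (unadjusted p = 0.0517, adjusted p = 0.815; 0.576% of genes called). Gata6, Mef2c and Hand2 also had positive estimates, down to 0.10 for Hand2. The fibroblast markers had a median difference of 0.79 over the 9 tested between the same sections, and Col1a2 of that list, a collagen gene, was called. Their summed level was 1254 to 2039 CPM in control and 1647 to 2969 in treated atrial libraries, and 1293 to 1357 and 1502 to 1954 CPM in left ventricular ones. The part of this difference in cell mix in the members' values was not tested.

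The estimates of the Iroquois genes between the ventricles had opposite signs, and neither passed adjustment. Irx4 was at 2.35, 3.118 and 2.055 CPM in control right ventricles and 5.012, 5.165 and 8.532 CPM in the left ventricles of the same mice. In nanoplastics mice 1, 3 and 4 it was at 2.166, 2.662 and 4.392 CPM on the right and 3.668, 2.689 and 5.648 CPM on the left. The right was lower in 6 of 6 mice, although the sides of nanoplastics mouse 3 were nearly level, and each right ventricle held 1 to 6 counts. The right minus left difference was -0.90 (SE 0.41, 95% interval -1.70 to -0.09, unadjusted p = 0.0285, adjusted p = 0.971).

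Irx3 was higher on the right, by 0.65 (unadjusted p = 0.0196, adjusted p = 0.971), in 4 of 6 mice. It averaged 9.401 ± 4.34 CPM in right (SD, n = 6) and 6.91 ± 1.81 CPM in left ventricular libraries (n = 7). Control mice 1 and 2 had 9.4 and 13.51 CPM on the right against 5.012 and 5.595 on the left, while nanoplastics mouse 4 had 2.196 against 6.777 CPM. Both Iroquois values come from the fit without a count filter, in which 0.0103% of genes were called. In that fit 540 of 19512 genes (2.77%) had an unadjusted p under 0.05.

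Between atrial and right ventricular sections 5 members passed and 0 were called, against 30 of 4954 genes tested (0.606%). Mef2c, at 27.92 ± 6.33 CPM in atrial and 23.73 ± 2.98 CPM in right ventricular libraries (SD, n = 7 and 6), was higher in 5 of 6 mice by 0.36 (unadjusted p = 0.06, adjusted p = 0.709). Irx4, a ventricular marker, was higher in the section labelled atrial by 1.11 (SE 0.42, 95% interval 0.28 to 1.93, unadjusted p = 0.00838, adjusted p = 0.685), in 4 of 6 mice. The exceptions were nanoplastics mice 1 and 3, with 0 and 1 counts in the atrial library. Irx3 went the other way, by -0.57 (adjusted p = 0.968, lower in 4 of 6 mice). Both Iroquois values come from the fit without a count filter, which called 0.33% of genes and gave 4.15% an unadjusted p under 0.05. Hand2, known for the right ventricle, averaged 14.47 ± 6.31, 13.78 ± 2.94 and 13.71 ± 3.50 CPM in atrial, right and left ventricular libraries (SD, n = 7, 6 and 7), and its right minus left difference was -0.01.

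Markers of other cell types differed between the same atrial and right ventricular libraries. Of the 9 fibroblast markers tested (median difference 0.51) Col1a2 (0.94), Postn (0.78) and Gsn (0.71) were higher in the atrial section, with adjusted p of 0.0103, 0.0498 and 0.012. Kcnj5, a potassium channel gene and 1 of 4 atrial muscle markers tested (median 0.86), was higher by 1.02 (SE 0.26, adjusted p = 0.0222). The beta globin genes Hbb-bs (-1.47, SE 0.25, adjusted p = 0.00969) and Hbb-bt (-1.42, SE 0.17, adjusted p = 3.27e-10), of 4 red cell markers tested (median -1.28), were lower there. Over the 14 alternatives Hbb-bt was called in 13, Hbb-bs in 10, Gsn in 8, Col1a2 and Kcnj5 in 6 and Postn in 5, each with an unchanged sign. The part of these markers in the members' values was not tested.

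**Figure D4:**
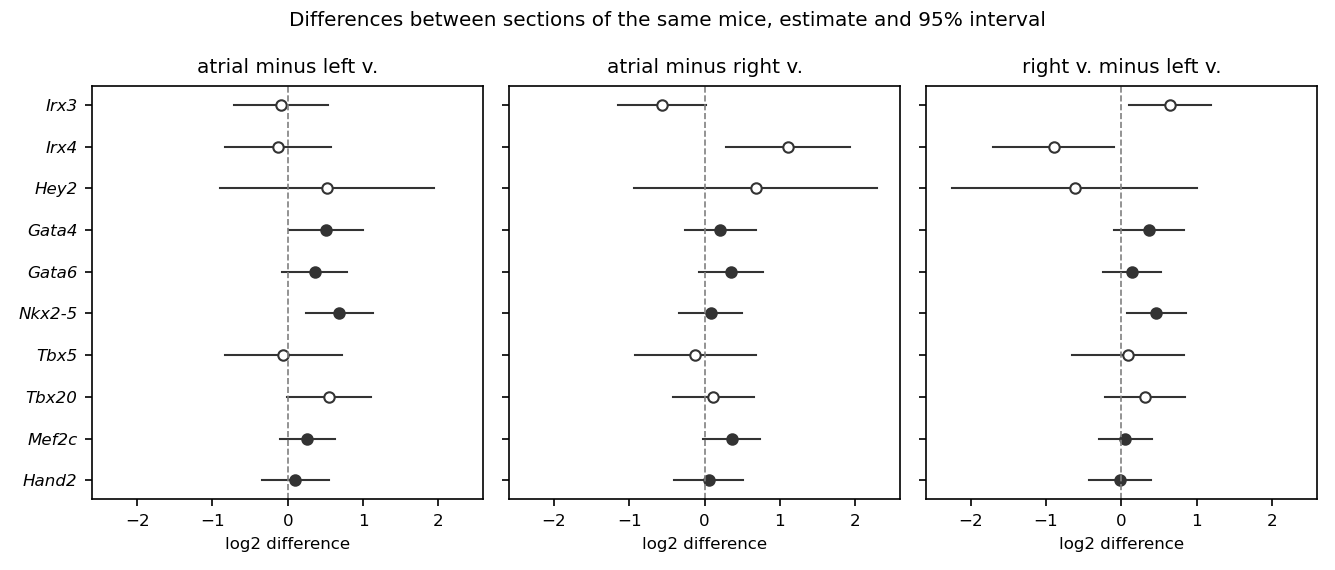
Log2 difference between sections of the same mice (linear axis) for each gene, with edgeR's estimate as points and the 95% interval as lines. Filled points passed the count filter and open points come from the fit without it, and Nkx2-5 is above 0 in both comparisons with the left ventricle.

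The rest of the network was given from lists of known members. Of 30 other heart transcription factor genes (among them other GATA, T-box, Iroquois, HEY and MEF2 genes) 26 were in the table and 11 passed the whole-heart filter. Of these 11, 0 rose and 0 fell, with a median log2 change of -0.01 against -0.03 over all genes tested. Of 24 genes for cofactors such as HOPX and myocardin, 22 were in the table, 13 were tested, and 0 rose and 0 fell (median -0.21). Neither list had a call in any section or between sections.

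Of 35 genes known as direct targets of these factors, all in the table, 30 were tested over the whole heart, 2 rose and 0 fell, with a median of 0.09. Among all 8485 genes tested 152 rose and 65 fell (2.56% called in all). The list was chosen with earlier results of these data known. Its counts beside the share of all genes, here and in the right ventricle below, are therefore descriptions only. Myl2 was at 7650, 7298 and 8935 CPM in controls and 12250, 10410, 10550 and 12260 CPM after nanoplastics, without overlap (log2 change 0.54, SE 0.11, adjusted p = 0.025). Tnni3, the cardiac troponin I gene, was at 15570, 14530 and 15030 CPM against 22630, 20270, 21170 and 21170 CPM, also without overlap (0.53, SE 0.10, adjusted p = 0.0183). The share of all genes without overlap is not given here, and these genes are shown because they were called. The lack of overlap is therefore a description only. Both genes are abundant muscle transcripts, far above the level of the factors. Myl2 is also on the list of ventricular muscle markers, which includes Irx3, Irx4 and Hey2. Of 9 markers of that list tested (median -0.29) no other was called.

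These calls were sensitive to single mice and to scaling. Without control mouse 2 the adjusted p was 0.145 for Myl2 (log2 change 0.49) and 0.141 for Tnni3 (0.51), and without nanoplastics mouse 2 it was 0.0548 (0.58) and 0.0507 (0.55). Myl2 also lost its call without nanoplastics mouse 1 (0.50, adjusted p = 0.0512). With the trend on annotated transcript length removed from each library the changes were 0.29 for Myl2 and 0.30 for Tnni3 and neither was called, and Myl2 was not called with library totals alone (0.29), which put the median of all genes at -0.27. With sections at equal weight in limma, where that median was -0.37, neither was called (0.35 and 0.30, adjusted p = 0.674). The 10 heart muscle markers, which include Tnni3, summed to 38260 to 45100 CPM in control and 52510 to 65710 CPM in treated left ventricles, and to 41620 to 49050 against 51980 to 60000 CPM in right ventricles. In atrial libraries the ranges overlapped, at 37590 to 48960 CPM in controls and 46880 to 64690 CPM after nanoplastics. Over the whole heart, Fbln1 (log2 change 1.09, SE 0.23, adjusted p = 0.0256) and Dcn (0.55, SE 0.15, adjusted p = 0.0466) rose as well, of 13 fibroblast markers tested (median 0.32). So did Dkk3 (1.78, SE 0.46, adjusted p = 0.0466), of 9 atrial muscle markers tested (median 1.78). Over the alternatives Fbln1, Dcn and Dkk3 were called in 9 of 15, 6 of 15 and 6 of 14. The part of these markers in the values of targets and factors was not tested.

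In the right ventricle 2 of 27 tested targets rose and none fell, against 27 higher and 12 lower of 4489 genes (0.869% called in all). Nppa, which encodes atrial natriuretic peptide and whose promoter is printed above, was at 256.1, 106.5 and 252.1 CPM in controls and 368.1, 503.2 and 379.9 CPM in the 3 usable treated libraries (log2 change 1.08, SE 0.25, adjusted p = 0.00857). All treated values were above all controls, which is a description only, since the share of all genes so ordered is not given here. Myh7, the slow myosin heavy chain gene, was at 29.14, 29.62 and 48.64 CPM against 64.97, 42.6 and 87.84 CPM, and nanoplastics mouse 3 lay within the control range (0.97, SE 0.25, adjusted p = 0.0234). Myh7 is also 1 of 7 ventricular muscle markers tested there (median -0.20), and Nppa 1 of 2 atrial muscle markers tested (median 0.54). No other marker of these 2 lists was called. In the same libraries Cytl1 rose (log2 change 1.50, SE 0.30, adjusted p = 0.000851), the only 1 of 5 endocardial markers tested. Rgs5 fell (-0.87, SE 0.24, adjusted p = 0.0456), of 6 smooth muscle and pericyte markers tested (median -0.15). Cytl1 and Rgs5 were called in 11 and 3 of 14 alternatives, and their part was not tested. No target passed in the atrial or left ventricular section or between sections.

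Leaving out single mice also moved the right ventricular targets. Nppa had a log2 change of 1.25 without control mouse 1 (adjusted p = 0.0997) and 0.76 without control mouse 2 (adjusted p = 0.348). Myh7 was not called without control mouse 1 or 2 (0.83 and 0.86) or without nanoplastics mouse 1, 2 or 4 (0.93, 0.93 and 0.67), where mouse 2 is the library of 4662 counts. Over all alternatives Nppa was called in 8 of 14 and Myh7 in 4 of 14, with adjusted p from 0.0115 to 0.9995 and from 0.000824 to 0.9995.

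Across the 20 libraries, the genes most like each member were found by Pearson's correlation of log2(CPM + 1) among 5257 genes with a mean of at least 10 counts, for the 6 members with such a mean. They were Sbno1 (0.87), Mipep (0.80) and Ndrg2 (0.72) for Gata4, and Ruvbl1 (0.77), Stxbp3 (0.73) and Gatc (0.73) for Gata6. Those of Nkx2-5 were Gigyf2 (0.86), Ypel3 (0.79) and Flii (0.76), and those of Tbx20 were Uri1 (0.82), Usf2 (0.78) and Rrs1 (0.73). Mef2c was closest to Vcp (0.68), Ank (0.66) and Hmgcs1 (0.66), and Hand2 to Srsf7 (0.77), Anxa3 (0.77) and Dynll1 (0.76). No member was among another's nearest genes. Between members the highest value was 0.50 (Nkx2-5 and Tbx20) and the lowest -0.49 (Mef2c and Hand2). The 20 points share mice, sections and depth, and the highest of so many correlations is high by selection, so these values are descriptions only.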

How the data were processed

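The only measured values used were the whole-number read counts of 20960 gene symbols in 21 libraries, deposited by the authors as 1 table without normalization. Per the labels' protocols, hearts perfused with cold buffer were sectioned, RNA was extracted with TRIZOL, and polyadenylated RNA was made into plate-barcoded libraries by template switching at the 5′ end (Singleron AccuraCode) and sequenced as paired ends on a NovaSeq instrument. The submitters' processing notes name the aligner STAR. Not given in the sources used here are its version, the genome build, the annotation, the counting program, the strand setting and whether unique molecular identifiers were used. Overlapping and antisense genes could therefore not be separated from the members.

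Counts were tested in R 4.3.3 with edgeR 4.0.16 (filterByExpr, TMM, robust quasi-likelihood test, Benjamini-Hochberg adjustment over all genes tested, called at an adjusted p under 0.05). Members under the filter take their values from a fit without it. The 4 treatment comparisons (3 sections and the sections summed per mouse) had no block. The 3 section and 3 interaction comparisons had the mouse as a block, because sections of a mouse share the animal. Replicates are separate mice by their numbering in the labels, so p-values of the treatment comparisons measure the spread between these mice. In the section and interaction comparisons they measure the spread left after each mouse's own level is removed. The number of a control and of a treated mouse does not mark a shared animal, and the deviations of same-numbered mice correlated between -0.19 and 0.15. Levels are TMM-scaled CPM over the 20 libraries above 100000 counts. Lengths are those of the longest GENCODE M21 transcript, used only for levels per kb and the length trend. Promoter windows came from the RefSeq table on GRCm38.p6.

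Alternatives were DESeq2 1.42.0 size factors and its test, library totals alone, no count filter, a removed trend on transcript length, equal weight of sections (limma 3.58.1), each mouse left out, and the shallow or atrial-rich libraries left out. Treatment comparisons were also fitted with the replicate number as a block, and section and interaction comparisons without the mouse as a block. Steps were tested on simulated counts. The 10 members and the 14 other gene lists were chosen with earlier results of these data known. Named are all members, list genes that were called, at most 4 per list, direction and comparison, the chamber markers Myl7, Sln, Myl4, Myl2 and Nppa, and the 3 genes most like each member.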

Additional observations from a re-analysis of the deposited data

Results flagged for a closer look

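Hand2 in the whole hearts of nanoplastics mice stood apart in 1 mouse. Mouse 1 was at 20.78 CPM (56 counts) and the other 3 at 10.79, 11 and 12.04 CPM (24, 39 and 33 counts), so the gap below the highest value took up most of the range of the 4 mice. Its atrial library, with 39180 CPM of the summed atrial muscle transcripts, had 27.45 CPM of Hand2, and its right and left ventricular libraries had 17.32 and 18.34 CPM, the highest treated value in each section. Over the 30 groups of at least 4 mice examined this way it was the only value to pass, and chance passes about 1 in 20.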

How the results depend on the processing

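Among members that passed the count filter, 0 were called in any of the 10 comparisons, and the count stayed 0 under each alternative that gave adjusted p-values for members, except between atrial and left ventricular sections, where leaving out single mice gave 0 to 1 (Nkx2-5 was called without nanoplastics mouse 4). The DESeq2 test gave members no adjusted p in the atrial and left ventricular treatment comparisons. Of 1134 member values recomputed under an alternative, 1010 kept their sign and side of the threshold, 122 changed sign, with sizes up to 0.47 on the log2 scale, and 2 became called (Nkx2-5, above, and Irx4, which lies under the filter, in the atria, also without nanoplastics mouse 4). Of the 91 pairs of member and comparison behind these values, 47 changed sign under at least 1 alternative.

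Sign changes are given for the values printed above, for a few other section and interaction estimates, and for 4 other treatment estimates. Among the latter, with library totals alone Gata4 was -0.11 and Mef2c -0.0491 in the left ventricle, Tbx5 in the right ventricle was 0.31 with the DESeq2 test and 0.43 without control mouse 1, and Irx3 in the atria was 0.32 without control mouse 3. With library totals alone, Gata6 had -0.10 and Hand2 -0.19 in the atria, Hand2 -0.21 in the right ventricle, Irx3 -0.0232, Gata6 -0.0575 and Hand2 -0.20 in the left ventricle, and Gata6 -0.15, Tbx5 -0.029 and Hand2 -0.22 in the whole heart. This moved the all-gene median to -0.26, -0.29, -0.21 and -0.27 in these comparisons. Hand2 in the right ventricle was -0.0585 without a count filter, -0.0074 with DESeq2 size factors and -0.0054 with the DESeq2 test, and in the left ventricle -0.0238 with that test. In the whole heart, equal weight of sections gave Gata6 -0.40 and Hand2 -0.39, removing the length trend gave Mef2c 0.0556, and leaving out the shallow and the atrial-rich library gave Hand2 -0.0735. Between right and left ventricle Hand2 was 0.0072 with DESeq2 size factors, 0.0323 with library totals and 0.0089 with the DESeq2 test. It was 0.0056 without the length trend and 0.0485 without the mouse as a block. For these sign changes the cause was not tested.

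Leaving out 1 mouse at a time gave -0.039 to 0.33 for Gata6 and -0.34 to 0.24 for Hand2 in the atria, -0.10 to 0.24 for Hand2 in the right ventricle, and -0.0185 to 0.40 for Gata6 and -0.19 to 0.18 for Hand2 in the left ventricle. In the whole heart it gave -0.19 to 0.11 for Gata4, -0.0072 to 0.70 for Tbx5, -0.13 to 0.0708 for Mef2c and -0.23 to 0.15 for Hand2. Between sections it gave -0.49 to 0.0772 for Irx4 and -0.0508 to 0.19 for Hand2 (atrial minus left), -0.0657 to 0.14 for Hand2 (atrial minus right), -0.0571 to 0.0314 for Hand2 (right minus left) and -0.19 to 0.32 for the Tbx20 interaction of right and left ventricle.

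Calls over all genes moved more. The whole-heart count of 217 became 797 with library totals (43 higher, 754 lower, against 152 and 65), 56 without the length trend, 313 with the replicate number as a block, 0 with sections at equal weight and 0 to 201 when mice were left out. The atrial count of 0 became 106 with the replicate block and 94 of 486 genes with the DESeq2 test. The right ventricular count of 39 ran from 0 with the DESeq2 test to 234 with library totals, and the left ventricular count of 3 from 0 with the replicate block to 80 of 693 genes with the DESeq2 test. The replicate block pairs mice that share only a number. With it Hand2 was -0.12 in the left ventricle, and members called were still 0. Depth limits Hey2, Irx4 and Tbx5 most, with means of 1.4, 5.7 and 5.1 counts a library.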
